A study of Mus musculus with 10 samples.

Results

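The genes described here carry symbols of cytosolic ribosomal proteins or of their relatives, and not all of them are listed as coding. They are the 24 amplicons, of 23930 in the table, whose gene symbol is Rpl or Rps with a number (and x, a or l where present), or Rpsa or Rplp with a number, and that held at least 15 reads over the 10 libraries; pseudogenes by name and the Rps6k kinases were left out. By symbol alone, 13 such genes were assigned to the large subunit and 11 to the small subunit. Ribosomal proteins without a matching symbol, without an amplicon or with fewer reads were not analysed here, Rpl7, Rpl36a and Rps27 among them. The 24 genes, their medians and their share of reads thus do not stand for the whole ribosome. Messengers of the 24 genes were read in epididymal white adipose tissue, a visceral fat depot, of male C57BL/6 mice aged 18 weeks. Of these mice, 5 were wild-type (Srgn+/+) and 5 Srgn-/-, called Srgn-knockout. All 10 mice had eaten a diet rich in sucrose and fat (high sucrose/high fat) over 8 weeks, and each library is 1 animal. Srgn encodes serglycin, a proteoglycan of secretory granules; the sources used here do not say how it was deleted. The Ion AmpliSeq kit reads 1 short amplicon per gene, so levels of the same gene can be set against each other but levels of different genes cannot.

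Of the 24 genes, 20 could be tested between the genotypes. None of them passed the edgeR quasi-likelihood test after adjustment over all genes, although most values were lower in Srgn-knockout fat. Among the 20, 14 had lower and 6 higher values (50.3% of all genes had a lower value). Their median log2 fold change was -0.15, against 0.00 over all 12719 genes tested. Rpl7l1, a relative of the large subunit protein Rpl7, lay lower in all 5 Srgn-knockout libraries than in any wild-type library, at 78.8% of its wild-type level (edgeR adjusted p = 0.197). The small subunit genes Rps9, Rps14 and Rps3 had 80.5%, 85.1% and 85.3% of their wild-type levels, with overlapping groups. In bulk tissue, fewer cells of a type and less RNA per cell cannot be told apart.

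The cytosolic ribosome translates messenger RNA into protein. Its small subunit holds the messenger and decodes it, and its large subunit joins the amino acids. In mammals most ribosomal protein messengers start with a run of C and T bases, the 5′ terminal oligopyrimidine tract, through which the kinase mTOR and the protein LARP1 adjust their translation together. A few proteins have a second gene that is used in a single tissue, such as Rpl3l in striated muscle and Rpl10l and Rpl39l in the testis. Ribosomal protein genes have many processed pseudogenes, copies of their messengers elsewhere in the genome.

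The start sites of a few members are shown because the pyrimidine tract is the feature these messengers are known to have in common. RefSeq promoter windows (build GRCm38.p6; 250 bases before to 50 after each annotated start) were found for 17 of the 24 genes, in 21 windows. Below are 30 bases around the longest run of C and T within 50 bases of the start, with that run in capitals.
Rps15: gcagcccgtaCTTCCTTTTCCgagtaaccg
Rpl4: gagcgtggCCTTCTCCTCTCCCCgtcatgg
Rps21: ggaggcacgagctaCTTCCTTTCTgcgctc
Rps9: caaccgccttgTCTCTCTTTgtctcgggcc
Rpl7l1: cgtcgaggcgggCCTCTCTaccccgcccgg
Rps3: cgcaaaacttcaTTTCCCatgcaaaacttc
They lie at chr10:80292446-80292475 (Rps15, plus strand), chr9:64173405-64173434 (Rpl4, plus), chr2:180257399-180257428 (Rps21, plus), chr7:3704024-3704053 (Rps9, plus), chr17:46782671-46782700 (Rpl7l1, minus) and chr7:99483739-99483768 (Rps3, minus). The runs measured 11 bases in Rps15, 15 in Rpl4, 10 in Rps21 and 9 in Rps9, against 7 in Rpl7l1 and 6 in Rps3. Counted from the annotated start, they began at base 26 in Rps15, 27 in Rpl4, 35 in Rps21, -6 in Rps9, -32 in Rpl7l1 and -47 in Rps3, so in none of the 6 did the run begin at the annotated start itself. A run of at least 8 bases was present in 13 of the 21 windows (61.9%) and in 35.7% of all 32851 promoter windows of the table. The ETS motif CCGGAAG, on either strand, was in 6 of the members' 21 windows (28.6%) and in 8.86% of all windows. The YY1 motif AAGATGGC, on either strand, was in 2 of the 21 (9.52%) and in 2.75% of all windows. The windows of Rps21, both with the ETS motif, overlap each other. An annotated start need not be the start used in fat, and a match describes letters only. Rpl30, Rpl32, Rpl8, Rps14 and Rps4l were among those with no entry.

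Libraries held 7824764 to 10757779 reads, and the Srgn amplicon had 776 to 1301 reads per wild-type and 0 to 12 per Srgn-knockout library. All 12 adipocyte markers looked up were read in every library. Across all genes, 1 of 12719 passed the threshold of 0.05 (0.00786%), which was Srgn, and this table calls few genes of any kind. Wild-type 4 and Srgn-knockout 3 and 5 held the most RNA of epididymis and sperm genes, with a summed level of 925, 3943 and 1109.9 CPM (read counts scaled to a common library size), against 1.24 to 159.6 CPM in the other 7. Levels below are CPM on effective library sizes (trimmed mean of M-values, TMM), as mean ± SD over 5 animals. A log2 fold change is negative where Srgn-knockout was lower, and SE is its standard error.

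Of the 13 large subunit genes, 10 reached the low-count filter, and 7 of these had lower and 3 higher values in Srgn-knockout (median log2 fold change -0.13). With edgeR 0 passed, and 1 had an unadjusted p under 0.05 with a lower value, where 6.06% of all genes did. DESeq2 called 1, where it called 226 of the 12447 genes it gave an adjusted p (1.82%), limma-voom 0 and limma-trend 0. That gene was Rpl7l1. Its level was 127, 138, 133, 138 and 117 CPM across wild-type 1 to 5, and 112, 93.6, 91.3, 110.5 and 108 CPM across Srgn-knockout 1 to 5. The highest Srgn-knockout library lay below the lowest wild-type library, as was so for 1.38% of all genes tested; no member lay without overlap in the other direction, where 1.39% of genes did. Its means were 131 ± 8.88 CPM in wild-type fat against 103 ± 9.75 CPM in knockout fat (SD, n = 5; log2 fold change -0.34, SE 0.0887, edgeR adjusted p = 0.197). The DESeq2 Wald test put it past the threshold (adjusted p = 0.0233), and it was the 1 member to pass in any alternative. Over the fits that left out 1 library its log2 fold change stayed between -0.38 and -0.30 (adjusted p = 0.149 to 0.452).

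**Figure D1:**
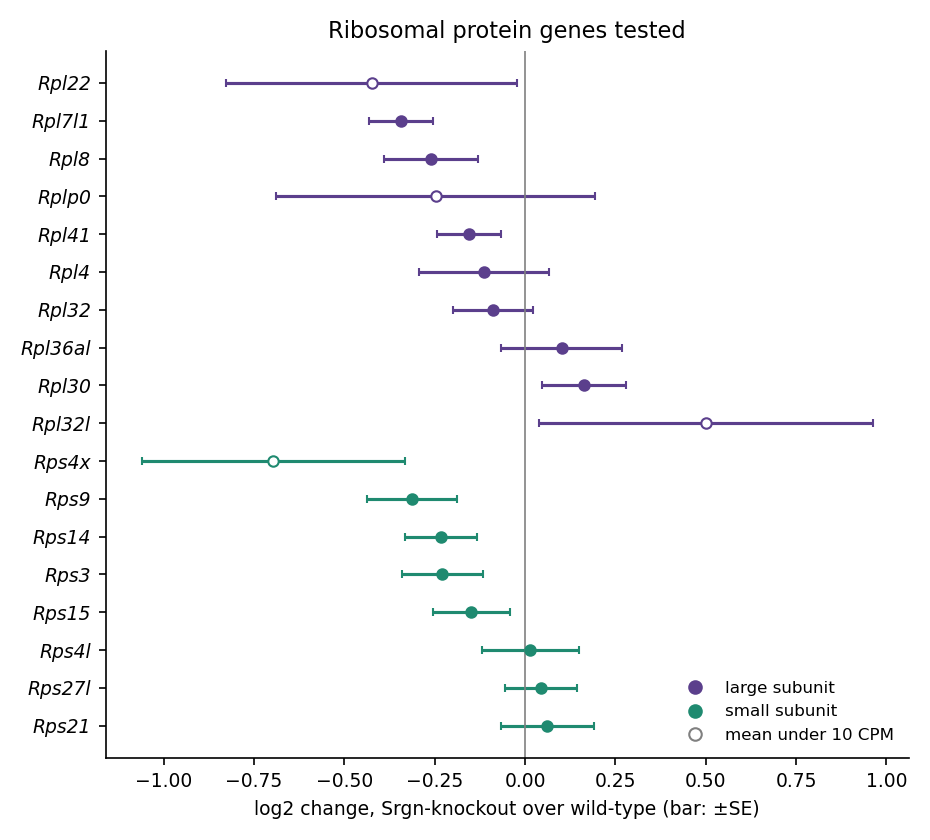
Log2 fold change of Srgn-knockout over wild-type (x axis) for 18 of the 20 ribosomal protein genes tested (y axis), large subunit in purple and small subunit in green; bars are ±SE and open circles mark genes with a mean under 10 CPM. Of the 18 points, 12 lie left of 0, and the open circles have the widest bars.

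Rpl8, which lies at the site where the large subunit forms peptide bonds, measured 827, 1114, 1023, 1157 and 1177 CPM across wild-type 1 to 5, and 1056, 753, 755, 936 and 921 CPM across Srgn-knockout 1 to 5 (log2 fold change -0.26, SE 0.131, edgeR adjusted p = 0.422). Wild-type 1 lay within the Srgn-knockout range, and Srgn-knockout 2 and 3 were the lowest of all. Rpl41, a very short basic protein, had 185, 166, 159, 199.8 and 186 CPM and 155, 146, 157, 174 and 173 CPM in the same order (log2 fold change -0.15, SE 0.0891, edgeR adjusted p = 0.493). The groups overlapped for it, with Srgn-knockout 1 to 3 below every wild-type library. Rpl32 had 759 ± 87.0 CPM in wild-type fat against 714 ± 80.8 CPM in knockout fat (log2 fold change -0.09, SE 0.111, edgeR adjusted p = 0.763), a log2 fold change that was -0.02 without wild-type 5. Rpl4, which lines the tunnel that the growing chain leaves by, measured 839.7, 1017, 1029.6, 1053 and 965 CPM across wild-type 1 to 5, and 1060.2, 495, 928, 1046 and 1003 CPM across Srgn-knockout 1 to 5 (log2 fold change -0.11, SE 0.18, edgeR adjusted p = 0.819). Srgn-knockout 2 was the lowest by far, and leaving it out gave a log2 fold change of 0.04.

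Rpl30, a protein at the interface with the small subunit, had 25.1 ± 3.07 CPM in wild-type fat against 28.1 ± 3.03 CPM in knockout fat, a higher value in Srgn-knockout (log2 fold change 0.16, SE 0.115, edgeR adjusted p = 0.572; 95% interval -0.10 to 0.43). Rpl36al, a second gene for a protein close to Rpl36a, had 21.1 ± 5.12 CPM in wild-type fat against 22.5 ± 2.19 CPM in knockout fat (log2 fold change 0.10, SE 0.168, edgeR adjusted p = 0.829; 95% interval -0.29 to 0.49). Its lowest library was wild-type 1, at 13.1 CPM, and leaving it out gave a log2 fold change of -0.03. Neither gene passed, and both intervals reach from a lower to a higher level.

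**Figure D2:**
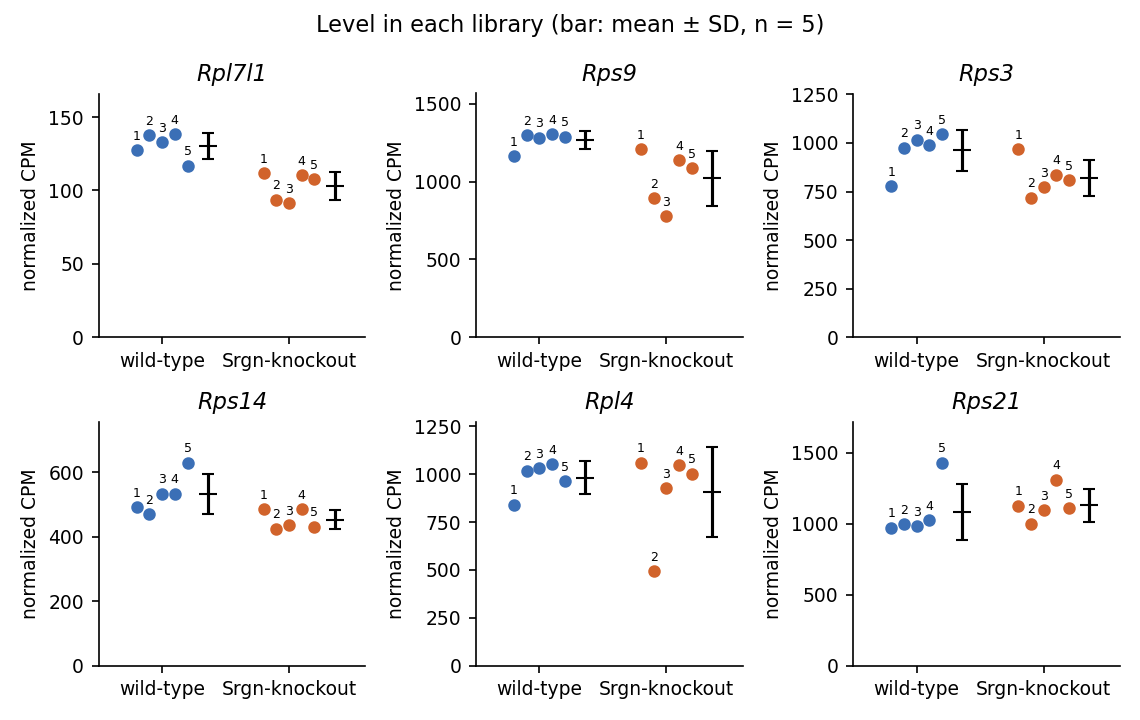
Normalized CPM (y axis, from 0) of 6 ribosomal protein genes in each library (x axis, wild-type in blue and Srgn-knockout in orange); numbers name the library within its group and black bars give mean ± SD, n = 5. The groups separate for Rpl7l1 alone, Srgn-knockout 2 stands apart for Rpl4 and wild-type 5 for Rps21.

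Of the 11 small subunit genes, 10 reached the filter, with 7 lower and 3 higher values in Srgn-knockout (median log2 fold change -0.19). With edgeR 0 passed, and 3 had an unadjusted p under 0.05, all lower (6.06% of all genes did so in that direction). DESeq2, limma-voom and limma-trend called 0. Rps9, which sits where the messenger enters the small subunit, measured 1162, 1299.6, 1281, 1305 and 1288 CPM across wild-type 1 to 5, and 1207, 892, 779, 1137 and 1085 CPM across Srgn-knockout 1 to 5 (log2 fold change -0.31, SE 0.124, edgeR adjusted p = 0.336). Its wild-type libraries 2 to 5 lay close together, while Srgn-knockout 1 lay above wild-type 1 and Srgn-knockout 3 was the lowest.

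Rps14, a protein of the small subunit's platform, measured 492, 470.3, 534, 534 and 630.1 CPM across wild-type 1 to 5, and 485, 426, 435, 486 and 432 CPM across Srgn-knockout 1 to 5 (log2 fold change -0.23, SE 0.0984, edgeR adjusted p = 0.359). Srgn-knockout 1 and 4 lay above wild-type 2, and wild-type 5 was the highest. Rps3, a neighbour of Rps9 at the messenger's entry, had 779, 976, 1017, 989.9 and 1046 CPM and 969, 718, 772, 836 and 807 CPM in the same order (log2 fold change -0.23, SE 0.113, edgeR adjusted p = 0.414). Wild-type 1 lay among the Srgn-knockout libraries and the other 4 wild-type libraries above all of them. The number of small subunit genes with an unadjusted p under 0.05, 3 with Rps9 and Rps14 among them, depended on single libraries. It was 0 without wild-type 4, Srgn-knockout 2 or Srgn-knockout 3, was 1 without wild-type 3, wild-type 5 or Srgn-knockout 5, and was 5 without wild-type 1. The count over all genes moved the same way for some of these libraries only. Of all genes, 771 were lower at that p, but 554, 559 and 551 without wild-type 4, Srgn-knockout 2 and Srgn-knockout 3. It was 574 without Srgn-knockout 5 and 1143 without wild-type 1. Without wild-type 3 or wild-type 5, where the small subunit number fell to 1, it was 736 and 780. Without wild-type 2 it was 561, while the small subunit number stayed at 3. For the large subunit the number was 2 without wild-type 1 or Srgn-knockout 1. The median of the large subunit was -0.07 without Srgn-knockout 2 and -0.08 without wild-type 4. Leaving out the 3 libraries richest in epididymis RNA, which keeps 7 animals, gave 1 gene for the large and 0 for the small subunit. Over all genes the number lower at that p fell as well, to 264 of 12947 tested.

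Rps15, in the head of the small subunit, had 1561 ± 189 CPM in wild-type fat against 1408 ± 99.4 CPM in knockout fat (log2 fold change -0.15, SE 0.106, edgeR adjusted p = 0.576). The 95% interval of the difference on the log2 scale, -0.39 to 0.10, holds 0, and the difference was -0.07 without wild-type 5. Rps21, with a run of 10 pyrimidines above, measured 973, 997, 981, 1025 and 1431 CPM across wild-type 1 to 5, and 1128, 1001, 1095, 1312 and 1108 CPM across Srgn-knockout 1 to 5 (log2 fold change 0.06, SE 0.128, edgeR adjusted p = 0.868). Wild-type 5 was the highest of all, and 4 of the 5 Srgn-knockout libraries lay above the other 4 wild-type libraries. Its log2 fold change was 0.18 without wild-type 5 and 0.00074 without Srgn-knockout 4. Rps27l, a relative of Rps27 that p53 can induce, had 220.3 ± 20.5 CPM in wild-type fat against 227 ± 23.6 CPM in knockout fat (log2 fold change 0.04, SE 0.0985, edgeR adjusted p = 0.881; 95% interval -0.18 to 0.27). Rps4l, which RefSeq lists as a transcribed pseudogene, had 48.9 ± 8.42 CPM in wild-type fat against 49.4 ± 6.25 CPM in knockout fat (log2 fold change 0.01, SE 0.135, edgeR adjusted p = 0.975; 95% interval -0.30 to 0.33). The sign of both turned with single libraries left out.

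The members together took 1.01% ± 0.0674 of all wild-type reads and 0.930% ± 0.0783 of those of Srgn-knockout fat (SD, n = 5), with 0.310% ± 0.0197 and 0.285% ± 0.0368 for the large and 0.697% ± 0.0517 and 0.644% ± 0.0448 for the small subunit. The groups overlapped for each of these shares. Reads of the large over those of the small subunit were 0.445 ± 0.0226 for wild-type and 0.442 ± 0.0370 for Srgn-knockout (SD, n = 5), a difference below the spread between libraries. For the 16 members with a mean of at least 10 CPM, the log2 deviation of each from its own mean over the 10 libraries was taken, and the median of the 16 describes a library. It was -0.10, 0.02, 0.12, 0.13 and 0.22 across wild-type 1 to 5, and 0.12, -0.20, -0.15, 0.0064 and -0.06 across Srgn-knockout 1 to 5. Wild-type 5 had all 16 members above their own mean and Srgn-knockout 2 had 0, while the others had 5, 9, 12 and 14 (wild-type 1 to 4) and 13, 4, 9 and 7 (Srgn-knockout 1, 3, 4 and 5). The split was thus near even in wild-type 2 and Srgn-knockout 4 and 5, and lopsided in libraries of both genotypes.

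Macrophage markers were lowest and highest in the same libraries. The summed level of 12 of 12 macrophage markers ranged from 1714 to 5898 CPM among wild-type and from 1802 to 3477 CPM among Srgn-knockout libraries; C1qa was at 0 reads in 3 Srgn-knockout libraries and no other marker was at 0. All 11 macrophage markers that could be tested had lower values in Srgn-knockout (median log2 fold change -0.47), and 0 passed with edgeR (3 at an unadjusted p under 0.05). The 3 libraries with the lowest macrophage level, wild-type 1 and Srgn-knockout 2 and 3, were also the 3 with the lowest ribosomal protein level, and wild-type 5 was highest in both. Summed adipocyte markers (12 of 12) ranged from 43446 to 62352 CPM and from 42635 to 62597 CPM in the 2 genotypes. They were highest in those same 3 libraries and lowest in Srgn-knockout 1 and wild-type 5. T-cell markers (12 of 12) summed to 134 to 269 and 181 to 228 CPM, and B-cell markers (10 of 11) to 42.8 to 168 and 22.8 to 36.7 CPM, the latter without overlap and with Cr2 at 0 in 1 Srgn-knockout library. By gene, 10 of 11 T-cell and 9 of 9 B-cell markers tested had lower values in Srgn-knockout (medians -0.99 and -1.11). With edgeR 0 passed, and 8 T-cell and 5 B-cell markers had an unadjusted p under 0.05, all lower, where 6.06% of all genes did. The part of T and B cells in the members' values was not tested. Mast-cell markers (9 of 9) summed to 69.0 to 119.8 and 52.8 to 89.1 CPM, endothelial markers (8 of 8) to 668 to 879 and 715 to 1001 CPM, and progenitor and fibroblast markers (9 of 10) to 3509 to 4503 and 3631 to 4053 CPM.

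**Figure D3:**
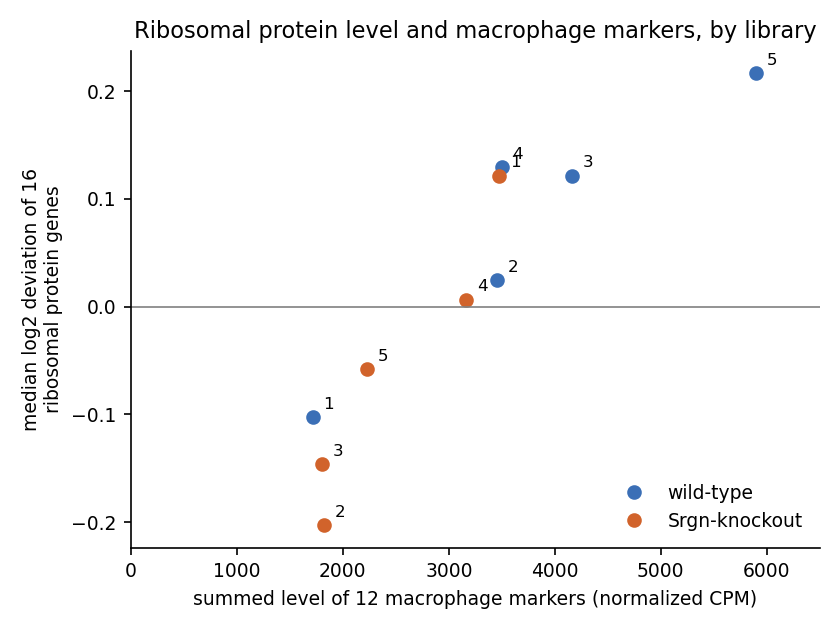
Median log2 deviation of the 16 ribosomal protein genes with at least 10 CPM from their own means (y axis) against the summed CPM of 12 macrophage markers (x axis), 1 point per library, with wild-type in blue and Srgn-knockout in orange. Wild-type 1 and Srgn-knockout 2 and 3 lie lowest on both axes and wild-type 5 highest; both axes share the scaling of the library.

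A fit with the log2 macrophage level beside genotype was added after these values were seen. Its genotype term was -0.31 for Rpl7l1 (adjusted p = 0.106 in edgeR), -0.20 for Rps9, -0.13 for Rps14, -0.08 for Rps3 and -0.09 for Rpl8, and 0 members passed, where 0.637% of all genes did. Without the macrophage level the values were -0.34, -0.31, -0.23, -0.23 and -0.26 in the same order. Macrophage markers themselves had lower values in Srgn-knockout, so this fit cannot fully separate genotype from macrophage level. The part of macrophages in the members' values was not tested. The median genotype term was 0.02 for the large and -0.07 for the small subunit, and 11 of 20 members had a lower value. At an unadjusted p under 0.05 were Rpl7l1, lower, and Rpl36al, higher (0.37). Of all 12719 genes in this fit, 1012 were lower and 1250 higher at that p. The macrophage term was above 0 for 19 of 20 members, where 48.7% of all genes had it above 0. It passed for 3 members, Rpl8 (0.33 per doubling of the macrophage level, adjusted p = 0.0155 in edgeR), Rps3 (0.28, adjusted p = 0.0212) and Rpl36al (0.44, adjusted p = 0.0198). Over all genes 12.7% passed in that direction, so this count is near the background, and 0 members passed in the other, where 8.49% of genes did. For Rpl7l1 the macrophage term was 0.06 and for Rpl41 0.0092.

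Of the 24 members, 8 had a mean under 10 CPM, and among them are 4 standard ribosomal proteins. Rplp0, the base of the stalk that recruits elongation factors, had 6 to 25 reads in a library, Rps4x, the X-linked small subunit protein, 7 to 30, Rpl22 5 to 27, and Rps2, near the messenger's entry, 0 to 4. Rps2 was at 0 reads in wild-type 2 and 4, so its level there could be as high as that of 3 reads, 0.287 and 0.343 CPM. Such counts cannot show a modest difference: the 95% interval of the log2 fold change was -1.53 to 0.14 for Rps4x (log2 fold change -0.70, SE 0.363, edgeR adjusted p = 0.438), -1.26 to 0.77 for Rplp0 (log2 fold change -0.25) and -1.35 to 0.50 for Rpl22 (log2 fold change -0.42). For Rplp0 the sign turned without wild-type 4. The value of Rps4x was -0.42 without wild-type 4, and that of Rpl22 -0.22 without Srgn-knockout 2. Rpl32l, which RefSeq lists as coding and GENCODE as a processed pseudogene, had 3 to 20 reads (log2 fold change 0.50, 95% interval -0.56 to 1.56).

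How much of each member's messenger is repeated in other genes was read from GENCODE M21 transcripts, 1 per gene, as the percentage of their 50-base words that also occur in a transcript of another gene. It was 72.2% for Rps4x, 71.3% for Rps2, 41.8% for Rplp0 and 5.19% for Rpl22. Among the 16 members with at least 10 CPM it ranged from 0% to 43.9% for Rpl41, with a median of 20.7%, and among the 8 others it had a median of 21.5%. Rps3 (2.96%), Rpl8 (6.49%) and Rpl7l1 (9.03%) shared few of their words, Rps9 shared 14.3% and Rps14 28.4%. The shared words of Rpl7l1 were spread over 252 other genes, against 1 other gene each for Rps3 and Rpl8. The sources used here do not say where the amplicons lie in these messengers, so whether reads of a member come in part from its copies was not tested.

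**Figure D4:**
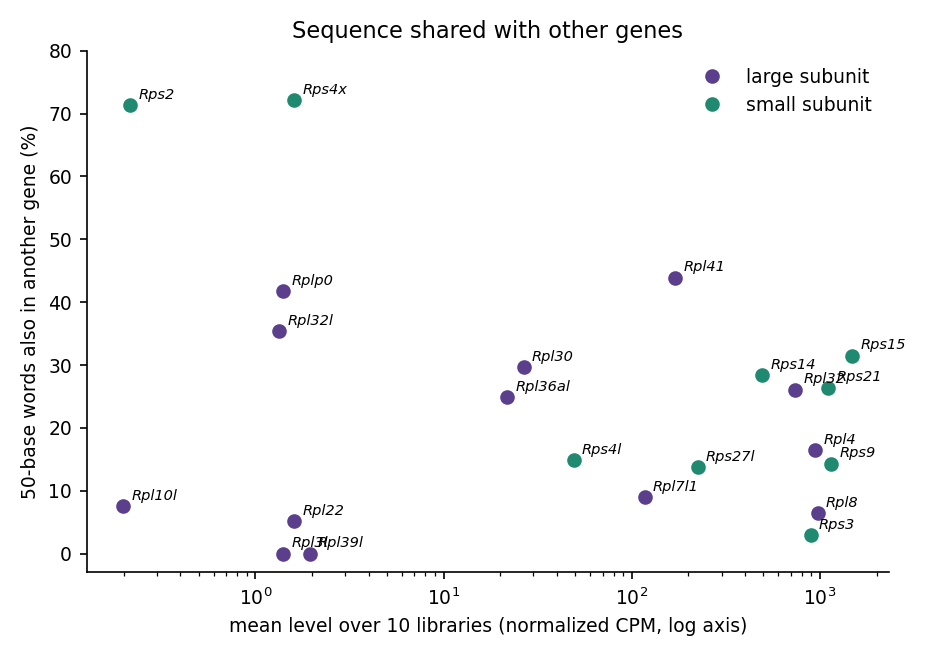
Percentage of the 50-base words of the transcript of 22 members that also occur in another gene (y axis) against the gene's mean level over the 10 libraries (x axis, normalized CPM on a log axis), large subunit in purple and small subunit in green. Rps2 and Rps4x, both under 10 CPM, have the highest percentages, and Rpl22, Rpl39l and Rpl3l, also under 10 CPM, have little shared sequence; amplicons differ in efficiency, so the order of levels between genes is not read.

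Of the 3 relatives with use in a single tissue, 2 had most of their reads in the same 3 libraries. Rpl39l had 10, 7, 7, 87 and 4 reads across wild-type 1 to 5, then 1, 1, 26, 8 and 21 across Srgn-knockout 1 to 5. The 3 libraries with the most epididymis and sperm RNA, wild-type 4 and Srgn-knockout 3 and 5, held 134 of its 172 reads. Rpl3l had 7, 0, 5, 11 and 0 reads and 1, 1, 76, 2 and 19 reads in the same order, and 106 of its 122 reads came from the same 3 libraries, 76 of them from Srgn-knockout 3. Summed skeletal muscle markers (11 of 12, a list added after the values were seen) were 45.0 CPM in Srgn-knockout 3, within the range of both groups (20.7 to 48.3 CPM for wild-type, 37.2 to 70.7 CPM for Srgn-knockout); Ckm was at 0 in 9 libraries, Myh2 in 4 and Myh4 in 2. Rpl10l had 4, 1, 0, 6 and 0 reads across wild-type, then 2, 0, 2, 3 and 0 across Srgn-knockout, and those 3 libraries held 8 of its 18 reads. Of the 18 epididymis and sperm markers, up to 13 were at 0 reads in a library, and the part of that RNA in the reads of Rpl39l and Rpl3l was not tested. These 3 genes and Rps2 did not reach the filter, and no fold change is given for them.

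**Figure D5:**
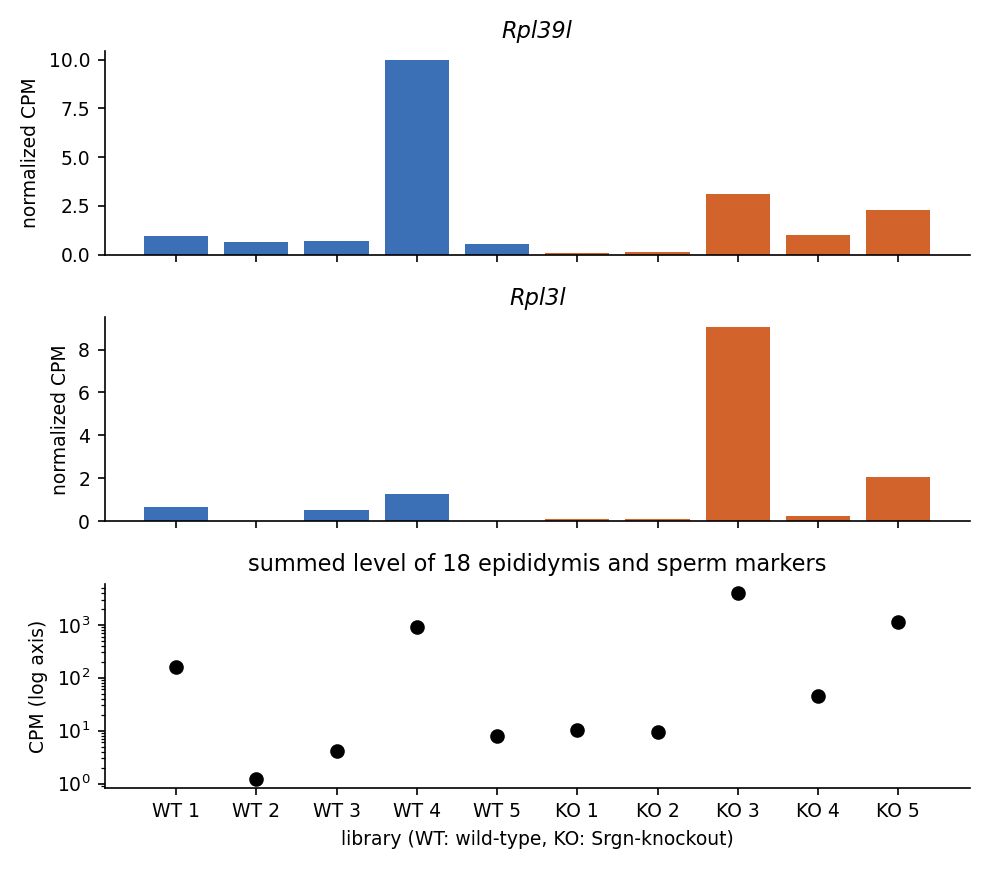
Normalized CPM of Rpl39l and Rpl3l (upper panels, bars from 0) and the summed CPM of 18 epididymis and sperm markers (lower panel, log axis) in each library (x axis), wild-type in blue and Srgn-knockout in orange. Both genes are highest in the 3 libraries with the highest marker sums, Rpl39l in wild-type 4 and Rpl3l in Srgn-knockout 3.

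Other genes of the pathway gave 0 calls by edgeR in either direction. Of 53 ribosome biogenesis factors tested, 21 had higher and 32 lower values (median log2 fold change -0.06), with 2 higher and 4 lower at an unadjusted p under 0.05 (6.77% and 6.06% of all genes). Ncl, the nucleolar protein nucleolin, had 88.8 ± 22.3 CPM in wild-type fat against 132 ± 9.27 CPM in knockout fat (log2 fold change 0.57, SE 0.153, edgeR adjusted p = 0.214), Mrto4, which acts in assembly of the ribosomal stalk, 66.1 ± 8.76 CPM in wild-type fat against 46.9 ± 9.26 CPM in knockout fat (log2 fold change -0.49, SE 0.143, edgeR adjusted p = 0.228), and Rrn3, a factor of RNA polymerase I, a log2 fold change of -0.28 (adjusted p = 0.334 in edgeR). Of 11 tested genes for translation factors and proteins that bind the ribosome, 9 had lower values (median -0.18), and 4 of these and 1 with a higher value had an unadjusted p under 0.05, against 6.06% and 6.77% of all genes. Naca, of the complex that binds new chains at the ribosome, had 183 ± 22.6 CPM in wild-type fat against 121 ± 13.1 CPM in knockout fat (log2 fold change -0.60, SE 0.109, edgeR adjusted p = 0.191), and Eef1d, of the elongation factor 1 complex, 123 ± 13.2 CPM in wild-type fat against 86.6 ± 7.30 CPM in knockout fat (log2 fold change -0.50, SE 0.0949, edgeR adjusted p = 0.191). Eif3f, of initiation factor 3, had a log2 fold change of -0.19 (adjusted p = 0.325 in edgeR). The groups did not overlap for Naca, Eef1d and Eif3f, 3 of the 11, where 1.38% of all genes were lower without overlap.

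Genes of the mTOR, S6 kinase and Myc control of ribosome production had 11 higher and 6 lower values of 17 tested (median 0.07), with 1 higher and 2 lower at an unadjusted p under 0.05, counts near the 6.77% and 6.06% of all genes. Akt1s1, a subunit of mTOR complex 1, had 113 ± 15.7 CPM in wild-type fat against 89.7 ± 5.52 CPM in knockout fat (log2 fold change -0.34, SE 0.103, edgeR adjusted p = 0.247), Eif4ebp2, which mTOR phosphorylates to free a cap-binding factor, a log2 fold change of -0.26 (adjusted p = 0.27 in edgeR), and Pdcd4, an S6 kinase target that restrains translation, 0.25 (adjusted p = 0.314). For the 69 mitochondrial ribosomal proteins, the median log2 fold change was -0.0031, with 34 higher and 35 lower values and 6 and 5 at an unadjusted p under 0.05, again near the share of all genes. Whether the cytosolic set differs from the mitochondrial set or from all genes was not tested.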

How the data were processed

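Total RNA of 10 fat samples, 5 per genotype, was read with the Ion AmpliSeq mouse transcriptome kit on an Ion S5 XL, per the labels' protocols. The authors deposited raw read counts for 23930 amplicons, and reads-per-million (RPM) values equal to the counts scaled by column total within 0.00059; build mm9 is named in the submitters' processing notes, while for the aligner and counter nothing is given in the sources used here. Counts were filtered with filterByExpr (minimum count 10, minimum total 15; 11211 genes removed), scaled by TMM factors and compared with the edgeR 4.0.16 quasi-likelihood test with robust dispersion in R 4.3.3, two-sided, without covariates, with Benjamini-Hochberg adjustment over 12719 genes at a threshold of 0.05. Intervals of a fold change use its SE and 8 degrees of freedom. Libraries held 7824764 to 10757779 reads; floors of 3 reads cover counting error only, since these are PCR reads without molecular identifiers. The median SE over genes was 0.165. Animals are numbered in accession order, which pairs none, and p-values rest on the spread among them.

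Alternatives were DESeq2 1.42.0, limma 3.58.1 (voom with quality weights, and trend on log2 of RPM plus 1), upper-quartile and RLE factors, library totals, TMM factors without the members, no filter and each library left out; 2 more, leaving out the 3 libraries richest in epididymis RNA and with the macrophage level as covariate, were chosen after seeing the data. The fits were tested on simulated data with the same spread for every gene and with changes larger than those of the members, in well-read genes. That test does not show how the fits perform on small differences or on genes with few reads. Members and lists were chosen with earlier results of these data known. Named were the members with the 5 smallest p per subunit and direction, those under the filter, set pairs of related genes and the stalk proteins, and the 3 genes with the smallest p per pathway list; Rpl4 and Rps15 were added after their values were seen. Single values of 2 members are not reported here; counts and medians include them. Promoters were matched by symbol to RefSeq (GRCm38.p6, not the build of the files); transcripts were those of GENCODE M21.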

Additional observations from a re-analysis of the deposited data

Results flagged for a closer look

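In a group of 5 libraries, 1 value that lies far from the other 4 (a gap of more than 0.71 of the group's range) is given here. Chance alone gives about 1 in 20 groups such a value, and 9 of 52 groups had one. Srgn-knockout 2 had 495 CPM of Rpl4, against 928 to 1060.2 CPM in the other libraries of its group, and 18.7 CPM of Rpl36al, against 22.8 to 23.9 CPM. Wild-type 1 had 779 CPM of Rps3 (others 976 to 1046), 1162 CPM of Rps9 (others 1281 to 1305) and 184 CPM of Rps27l (others 227 to 234). Wild-type 5 had 1431 CPM of Rps21, against 973 to 1025 CPM. Wild-type 3 had 0.305 CPM of Rpl32l, the level of 3 reads, against 1.15 to 1.46 CPM. Wild-type 4 had 9.95 CPM of Rpl39l, against 0.531 to 0.962 CPM, and Srgn-knockout 3 had 9.05 CPM of Rpl3l, against 0.0980 to 2.08 CPM. Macrophage markers summed to their 3 lowest levels in wild-type 1 and Srgn-knockout 2 and 3, and epididymis markers to their highest in Srgn-knockout 3; their part in these values was not tested.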

How the results depend on the processing

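No paired analysis was possible because the labels carry no replicate numbers that the genotypes share. Of 20 members tested, 14 had a lower value under every scaling, although library totals moved the split of all genes at an unadjusted p under 0.05 from 771 lower and 861 higher to 481 and 1195, upper-quartile factors to 595 and 1073 and limma-trend to 482 and 1180. Genes passing the threshold numbered 1 with edgeR, 3 without the low-count filter, 10 with limma-voom, 226 with DESeq2, 81 with the macrophage covariate and 1 to 2 with 1 library left out. Large subunit genes passing numbered 1 with DESeq2. Large subunit genes at an unadjusted p under 0.05, 1 in the edgeR test, were 2 with DESeq2, 2 with limma-voom, 2 with the macrophage covariate (Rpl7l1 lower, Rpl36al higher) and 1 to 2 with 1 library left out. Small subunit genes, 3 in the edgeR test, were 1 with library totals, 5 with limma-voom and 0 to 5 with 1 library left out. They were 0 without the 3 libraries richest in epididymis RNA and 0 with the macrophage covariate. The count over all genes moved too. Those lower at that p numbered 771 in the edgeR test, 864 with DESeq2, 1343 with limma-voom and 264 without the 3 libraries. With the covariate, 1012 of all genes were lower and 1250 higher. The large subunit median was 0.025 with the covariate and -0.18 to -0.07 with 1 library left out, and the small subunit median -0.23 to -0.14. Signs turned with the covariate for Rpl32 (0.028), Rpl4 (0.021) and Rplp0 (0.12). They turned with limma-voom for Rps27l (-0.0073) and Rps4l (-0.014), and without the 3 libraries for Rplp0 (0.22) and Rps4l (-0.012). With 1 library left out they turned for Rpl36al (-0.031 to 0.20), Rpl4 (-0.18 to 0.041), Rplp0 (-0.65 to 0.0064), Rps27l (-0.017 to 0.083) and Rps4l (-0.086 to 0.066). The cause was not tested. Members under 10 CPM are limited by depth.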
